A study of Mus musculus with 63 samples.

Results

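The transcripts described here come from 9 genes of the core pluripotency network, Pou5f1, Sox2, Sall4, Utf1, Lin28a, Trim71, L1td1, Dppa2 and Dppa4, which mouse embryonic stem cells are known to keep transcribing after they leave the naive state. They were chosen by name, and all 9 were found among the 24990 rows of each deposited table. Pou5f1 lies on mouse chromosome 17, Sox2 on chromosome 3, Sall4 on chromosome 2, Utf1 on chromosome 7, Lin28a and L1td1 on chromosome 4, Trim71 on chromosome 9, and Dppa2 and Dppa4 next to each other on chromosome 16. Pou5f1 encodes OCT4 and Sox2 encodes SOX2, transcription factors that bind many stem cell enhancers side by side. SALL4 is a zinc-finger partner of both in repressor complexes, and UTF1 is a chromatin-bound factor of undifferentiated cells. LIN28A is an RNA-binding protein that blocks maturation of let-7 microRNAs, TRIM71 is an RNA-binding ubiquitin ligase whose mRNA is itself a let-7 target, and L1TD1 is an RNA-binding protein derived from a LINE-1 transposon. DPPA2 and DPPA4 form a heterodimer on chromatin that is needed for the Zscan4 genes of the early embryo.

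RNA with poly(A) tails was sequenced in 63 libraries, 3 for each of 21 groups, all from the mouse embryonic stem cell line R1 or its neural progenitor derivatives (NPCs). The genotype series compared wild-type lines WT1 and WT2, lines pKO1 and pKO2 labelled as knockouts of the promoter of the long non-coding RNA Meteor, and the line pInv with that promoter inverted. Each line was grown in 2i medium, in which 3 µM CHIR99021 inhibits GSK3, 1 µM PD0325901 inhibits MEK and LIF is present at 10 ng/ml, in LIF medium with 15% serum, and as NPCs collected after 4 days in medium without serum or LIF. The perturbation series compared empty-vector cells (Ctrl) with the knockdown lines KD1 and KD2 in serum and as NPCs. The knockdown is labelled as dCas9-based on the samples and as Cas9-based in the series text, and the labels do not say how the lines were cloned. Stem cells in 2i and in serum grew on embryonic fibroblast feeders, whereas cells bound for NPCs were first passaged without feeders, and 1 Ctrl NPC library carries no growth protocol.

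Library totals lay between 7566629 and 18553323 counts. Whether the 3 libraries of a group were separate cultures is not stated, so p-values measure the spread between these libraries, which may be technical. Platr11, an annotated non-coding gene next to Eomes on chromosome 9, served as the check of the locus, since no row carries the name Meteor: it ran from 4.56 to 26.9 CPM (counts per 1000000 counted reads) over the WT libraries, did not pass 0.367 CPM in any pKO or pInv library, and ran from 8.31 to 23.9 CPM in Ctrl against 0.497 to 4.10 CPM in KD. Markers followed the labels in part. The naive factor Nanog averaged 1322 CPM in WT 2i cells, 379 CPM in WT serum cells and still 227 CPM in WT NPCs. Other naive genes fell further, Esrrb from a mean of 303 CPM in WT serum cells to 23.9 CPM in WT NPCs and Zfp42 from 273 to 23.7 CPM. The 14 naive genes summed to a median of 1936 CPM in WT serum libraries and 338 CPM in WT NPC libraries. The neural factor Sox1 rose from a mean of 0.355 CPM in WT serum cells to 153 CPM in WT NPCs. The neural marker Nes averaged 27.4 ± 8.11 CPM in WT serum cells and 35.6 ± 11.5 CPM in WT NPCs (SD, n = 6 each). The 11 formative and primed epiblast genes summed to 1285 to 1608 CPM and 2310 to 3288 CPM. The 20 fibroblast markers summed to 924 to 1878 CPM in WT 2i libraries, 3691 to 7201 CPM in WT serum libraries and 278 to 1021 CPM in WT NPC libraries. The 10 macrophage markers summed to 227 to 371 CPM, 243 to 543 CPM and 7.49 to 13.9 CPM in the same order, with Mpeg1 at 0 in all WT NPC libraries. A change in RNA from other cells changes the share of every stem cell transcript, and its part in the results below was not tested. Fewer cells of a type and less RNA per cell cannot be told apart in bulk RNA.

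In WT, Pou5f1 and Sox2 fell from 2i to serum and again to NPCs, and Lin28a rose at both steps. The Pou5f1 call in serum was lost in 11 of 18 fits that left out 1 library, and was not made in pKO or pInv. Promoter sequence is shown for these genes. Each is 300 bases from RefSeq (GRCm38.p6), from 250 before a start listed there to 50 after it (for Lin28a the gene's annotated span reaches further upstream than that start), written 5′ to 3′ on the gene's strand, with motif matches in capitals.
Pou5f1, chr17:35505782-35506081, plus strand: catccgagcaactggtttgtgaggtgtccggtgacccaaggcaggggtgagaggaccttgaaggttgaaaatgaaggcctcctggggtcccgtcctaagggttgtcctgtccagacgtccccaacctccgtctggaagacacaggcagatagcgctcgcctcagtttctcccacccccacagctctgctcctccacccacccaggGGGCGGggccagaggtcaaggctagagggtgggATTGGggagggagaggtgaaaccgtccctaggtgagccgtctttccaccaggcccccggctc
Sox2, chr3:34649745-34650044, plus strand: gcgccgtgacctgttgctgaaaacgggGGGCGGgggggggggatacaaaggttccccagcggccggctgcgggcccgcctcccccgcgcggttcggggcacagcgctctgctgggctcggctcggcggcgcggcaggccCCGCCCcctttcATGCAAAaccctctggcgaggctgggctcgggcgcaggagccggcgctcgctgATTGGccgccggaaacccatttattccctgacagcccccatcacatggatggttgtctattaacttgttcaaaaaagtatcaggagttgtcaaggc
Lin28a, chr4:134018767-134019066, minus strand: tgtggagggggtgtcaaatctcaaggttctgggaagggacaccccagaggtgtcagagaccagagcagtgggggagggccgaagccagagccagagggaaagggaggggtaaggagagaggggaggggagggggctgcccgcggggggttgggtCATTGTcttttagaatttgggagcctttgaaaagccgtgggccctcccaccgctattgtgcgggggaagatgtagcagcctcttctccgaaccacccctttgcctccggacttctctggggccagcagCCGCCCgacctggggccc
Capitals mark 5 motifs searched on both strands: the GC box GGGCGG, the CCAAT box, the TATA box as TATAAA, the SOX element as CATTGT and the octamer core as ATGCAAA. The Pou5f1 window shown holds 1 GC box and 1 CCAAT box (a window at a second listed start, not shown, holds 1 CCAAT box and 1 SOX element), the Sox2 window holds 2 GC boxes, 1 CCAAT box and 1 octamer core, and the Lin28a window holds 1 GC box and 1 SOX element. Among all 32851 promoter windows of the table, 35.7% hold a GC box, 37.4% a CCAAT box, 13.6% the TATA box, 12.6% the SOX element and 4.63% the octamer core. Such short motifs are common, and a match is a description of letters, not of binding. Of the 9 genes, 6 had an entry: the Utf1 window on chromosome 7 holds 4 GC boxes and 17 CpG dinucleotides, the Trim71 window on chromosome 9 holds 1 GC box, 1 CCAAT box and 19 CpG, and the L1td1 window on chromosome 4 holds none of the 5 motifs and 14 CpG, against a median of 7 CpG over all windows. Sox2 had the most, 27 CpG, while Pou5f1 had 11 and Lin28a 10.

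All 9 transcripts were present in every library, the lowest value being 7.83 CPM for Lin28a in a pInv 2i library. On a per-length scale (TPM, the length-corrected share of transcripts, as deposited), the order in 2i was Pou5f1 at a median of 919 TPM over 15 libraries, Utf1 at 316 TPM, L1td1 at 127 TPM, Dppa2 at 117 TPM, Sall4 at 75.2 TPM, Sox2 at 70.0 TPM, Dppa4 at 50.4 TPM, Trim71 at 32.5 TPM and Lin28a last at 9.23 TPM. Over the 24 NPC libraries Pou5f1 was still first at 597 TPM, Utf1 stood at 331 TPM, Lin28a at 164 TPM and Sox2 at 24.1 TPM, next to last before Trim71 at 19.9 TPM. The series differed in this order: mean Lin28a exceeded mean L1td1 in WT NPCs, at 173 against 70.2 TPM, and lay below it in Ctrl NPCs, at 111 against 138 TPM. In serum mean Pou5f1 was above mean Utf1 in WT, at 843 against 687 TPM, and below it in Ctrl, at 1298 against 1386 TPM. The spread over the 21 group means differed widely between genes. Lin28a ranged 49.8-fold, from 10.1 CPM in pInv 2i cells to 504 CPM in pKO1 NPCs, and Dppa2 ranged 14.3-fold, from 18.1 CPM in pKO1 NPCs to 258 CPM in KD1 serum cells. The other 7 ranged from 2.22-fold for Trim71 to 6.17-fold for Sox2. Ordered by their means, neighbouring groups overlapped in their libraries at all 20 steps for 7 of the genes. Lin28a had 4 steps without overlap and Dppa2 had 3, so most adjacent ranks do not differ beyond their spread. How often such steps occur over all genes was not counted, so these numbers do not set Lin28a and Dppa2 apart.

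**Figure D1:**
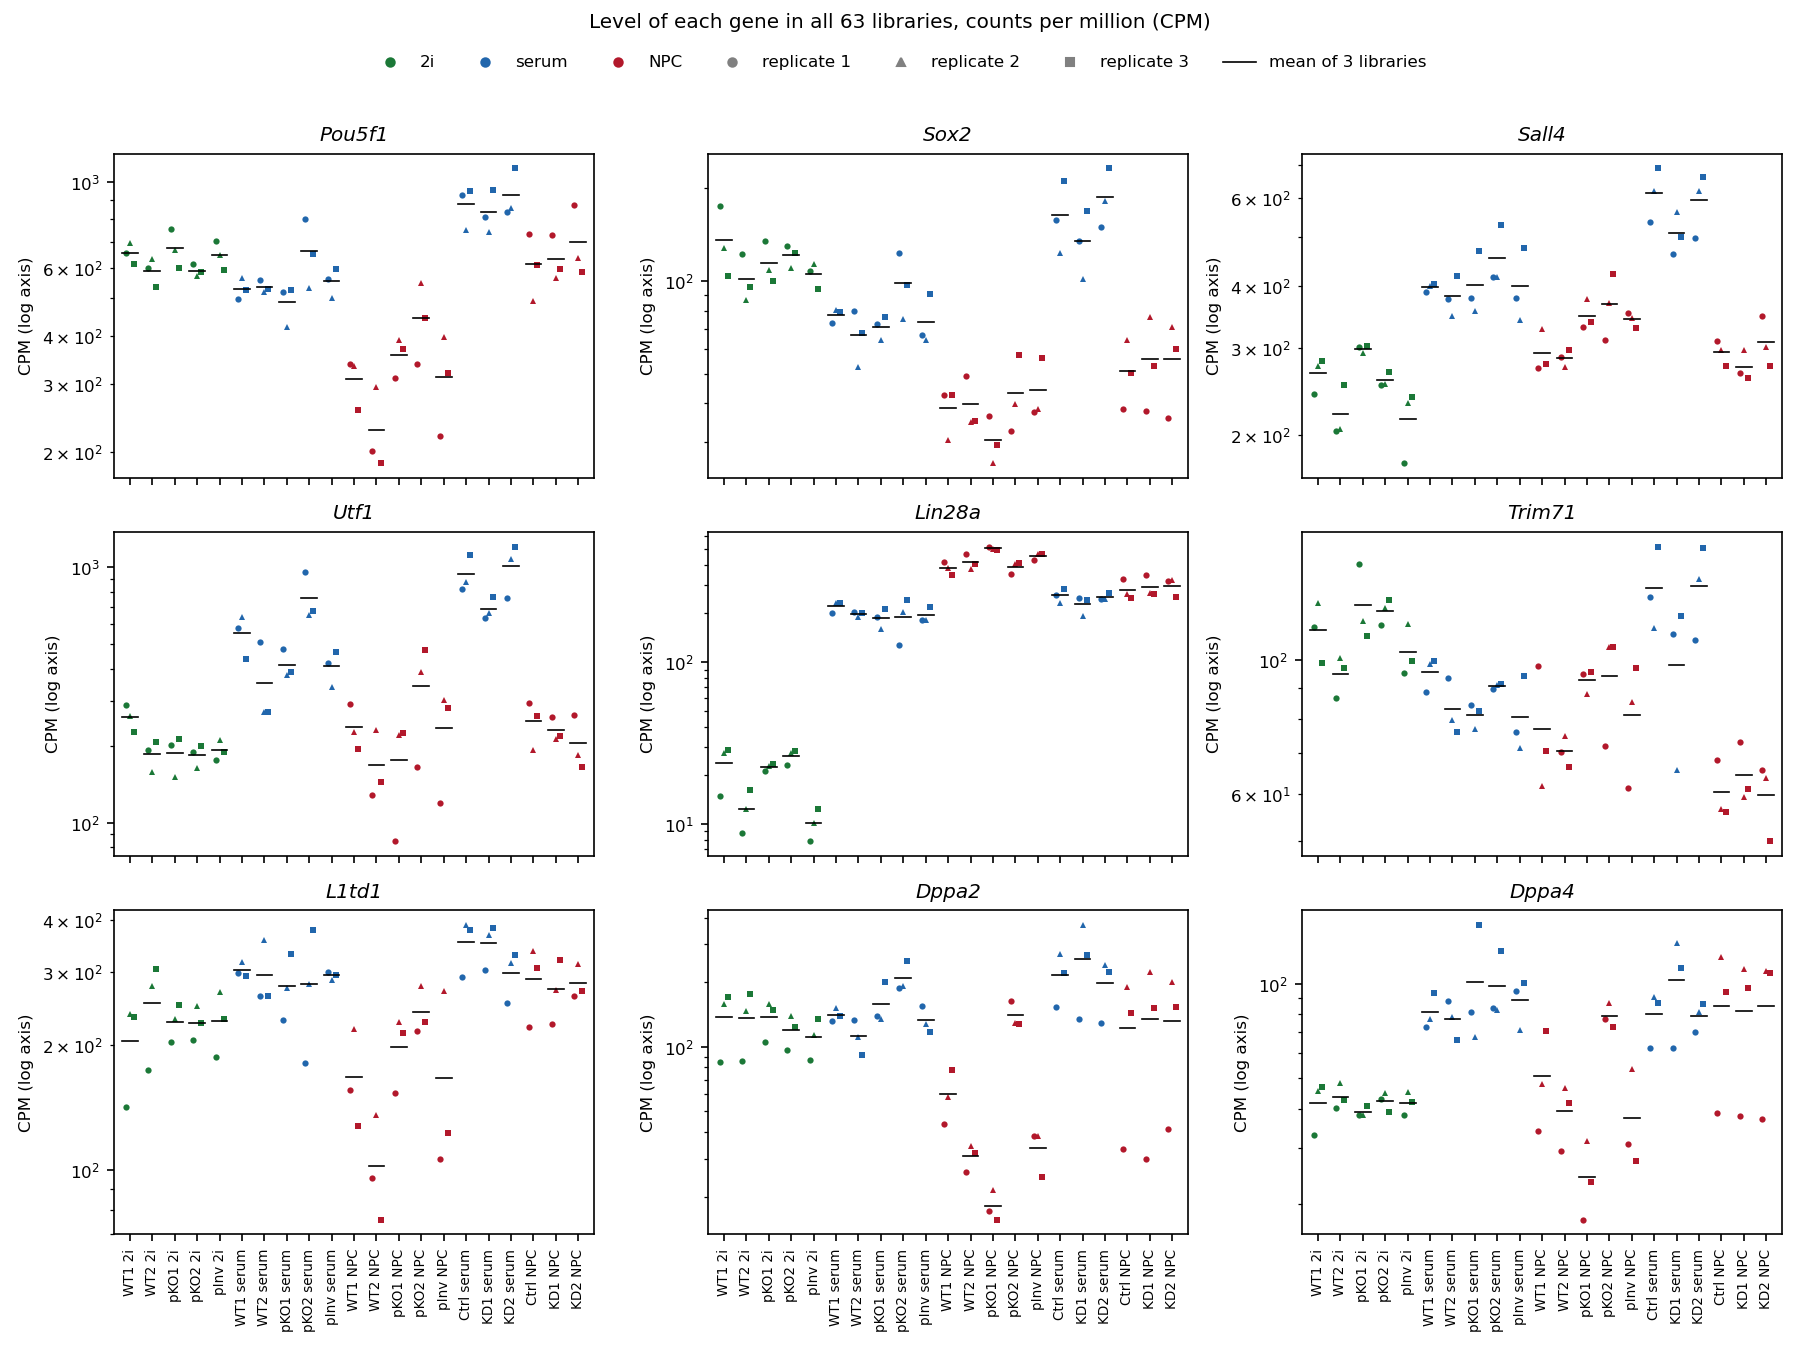
Level of each of the 9 genes in all 63 libraries, in CPM on a log axis, with groups along the x axis, colour for the state, symbols for the replicate number and a bar at the mean of 3 libraries. Lin28a climbs from 7.83 to 28.8 CPM in 2i to 249 to 517 CPM in NPCs, while Sox2 drops to 25.6 to 76.4 CPM in NPCs.

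The first comparison asks how the genes differ between the naive-like 2i state and serum. In WT cells 4 of the 9 rose in serum (Lin28a, Utf1, Dppa4 and Sall4), 2 fell (Sox2 and Pou5f1) and Trim71, L1td1 and Dppa2 did not pass the test, where 59% of all 15145 genes tested passed it, 29.5% higher and 29.5% lower (edgeR quasi-likelihood test, Benjamini-Hochberg adjusted p under 0.05). Lin28a ran from 8.79 to 28.8 CPM with a median of 15.6 in 6 WT 2i libraries and from 191 to 233 CPM with a median of 203 in 6 WT serum libraries. The groups lie far apart, a log2 fold change of 3.58 ± 0.15 (SE, adjusted p = 2.23e-12). Utf1 went from 158 to 287 CPM (median 216) in 2i to 272 to 640 CPM (median 474) in serum, a log2 change of 0.98 ± 0.18 (adjusted p = 0.000116) with overlapping libraries. Dppa4, with means of 42.8 ± 5.62 CPM in 2i and 79.2 ± 9.97 CPM in serum (SD, n = 6 each), and Sall4, from 204 to 282 CPM against 347 to 418 CPM, did not overlap between the states, with log2 changes of 0.86 ± 0.16 (adjusted p = 0.000159) and 0.65 ± 0.08 (adjusted p = 1.22e-06).

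Sox2 was the member that fell most in serum: 86.6 to 176 CPM in WT 2i libraries became 52.5 to 80.5 CPM in WT serum libraries, a log2 change of -0.74 ± 0.15 (adjusted p = 0.000361). Those ranges do not overlap. Pou5f1 moved little, from 533 to 693 CPM down to 497 to 564 CPM, a log2 change of -0.25 ± 0.10 at an adjusted p of 0.0485. Its call was lost in 11 of the 18 fits that left out 1 library, namely without either line's libraries 1 or 2 in 2i, without any of the 6 serum libraries and without WT1 NPC library 2, with log2 changes from -0.27 to -0.23 in them. It was also lost without the low-count filter (adjusted p = 0.0559) and with lines as replicates (0.218). Trim71, at -0.24 ± 0.10 (adjusted p = 0.0558), passed in 4 such fits, without WT1 2i 3, WT2 serum 1, WT1 NPC 1 or WT1 NPC 2. L1td1, at 0.38 ± 0.17 (adjusted p = 0.0666), passed in 2, without WT2 2i 3 or WT1 NPC 2. Trim71 also passed by DESeq2 (adjusted p = 0.0437), L1td1 with the replicate block (6.15e-05), and Dppa2, at -0.44 (0.00379), with libraries numbered 2 and 3 only. Dppa2 averaged 137 ± 41.7 CPM (SD, n = 6) in 2i and 126 ± 21.4 CPM (SD, n = 6) in serum.

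Other genes of the same pathways moved in both directions from 2i to serum in WT. Of 14 naive pluripotency genes tested 10 fell and 1 rose, with Tbx3, a T-box factor, at -3.91 ± 0.12 and Nanog at -1.87 ± 0.16 on the log2 scale, and of 11 formative and primed epiblast genes 10 rose, with the DNA methyltransferase Dnmt3b at 3.09 ± 0.13. The known OCT4-SOX2 enhancer targets were divided, 4 of 10 higher and 3 lower, Fgf4 at -1.83 ± 0.14 against Zscan10 at 1.16 ± 0.11. In the LIN28 and let-7 pathway 4 of 16 genes rose and 6 fell, and Hmga2, a chromatin protein whose mRNA is a let-7 target, had the smallest p at 3.91 ± 0.15. Partners of SALL4 and OCT4 counted 4 higher and 4 lower of 18. The fibroblast list counted 15 higher of 19, and the macrophage list 8 higher and 1 lower of 10.

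The promoter-deleted and promoter-inverted lines gave their own values for the same step. In pKO cells 7 of 9 passed (58.1% of 15679 genes did), Lin28a at a log2 change of 2.94 ± 0.14, Utf1 at 1.59 ± 0.24, Dppa4 at 1.27 ± 0.18, Sall4 at 0.61 ± 0.09 and Dppa2 at 0.49 ± 0.17 higher, and Trim71 at -0.52 ± 0.11 and Sox2 at -0.50 ± 0.16 lower. In pInv cells 4 passed (44.3% of genes did), all higher, led by Lin28a at 4.26 ± 0.21. By DESeq2 6 passed (7207 genes did), adding Sox2 at -0.52 and Trim71 at -0.36 (adjusted p = 0.0488), both lower. The Dppa2 call in pKO was lost at 0.39 without pKO1 serum 3. In pInv, Sox2 at -0.51 ± 0.22 (adjusted p = 0.0553) passed in 7 of 45 fits that left out 1 library, without WT1 2i 1 or 3, pInv 2i 3, pKO2 serum 1 or 2, pInv serum 3 or pInv NPC 3. Trim71 in pInv, at -0.36 ± 0.16 (adjusted p = 0.0598), passed in 6, without WT1 2i 3, pInv serum 3, WT1 NPC 1, pKO2 NPC 1 or pInv NPC 1 or 3. The difference of the serum step between pKO and WT was past the threshold for none of the 9 by edgeR (1.13% of genes). At an unadjusted p under 0.05 there were 2 (13.5% of genes), and by DESeq2 1 passed (402 genes did). That gene was Lin28a, whose serum rise was smaller in pKO by 0.64 ± 0.18 on the log2 scale (adjusted p = 0.069 by edgeR, 0.0259 by DESeq2), and leaving out library 3 of WT1 2i, WT2 2i, pKO1 serum or pKO2 serum brought it past the threshold, with differences from -0.76 to -0.71. Between pInv and WT none passed by edgeR or by DESeq2 (0.0191% of genes by edgeR), with 1 at an unadjusted p under 0.05 (2.43% of genes).

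The second comparison asks what 4 days of neural differentiation left of the network. In WT all 9 genes passed the test from serum to NPCs, 8 lower and Lin28a higher, where 66.3% of the 15145 genes passed, 32% higher and 34.3% lower. The median log2 change of the 9 was -0.97, against -0.02 over all genes tested. Dppa2 fell most, from 91.6 to 151 CPM (median 133) in 6 WT serum libraries to 26.1 to 77.6 CPM (median 39.2) in 6 WT NPC libraries. That is a log2 change of -1.63 ± 0.19 (adjusted p = 5.43e-07). L1td1 went from 263 to 358 CPM (median 295) to 75.7 to 218 CPM (median 131), at -1.28 ± 0.17 (adjusted p = 3.87e-06). Neither pair of ranges overlaps.

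OCT4 mRNA was lower in NPCs but still abundant. Pou5f1 stood at 497 to 564 CPM in WT serum and at 187 to 338 CPM (median 275) in WT NPCs, a log2 change of -1.09 ± 0.11 (adjusted p = 6.74e-08). Sox2, which neural progenitors are known to need as well, fell too, from 52.5 to 80.5 CPM (median 76.0) to 30.4 to 48.9 CPM (median 38.9), at -0.97 ± 0.15 (adjusted p = 2.06e-05). In the same libraries 10 of 12 other SoxB1 and neural progenitor genes rose and none fell, Sox1 at a log2 change of 8.46 ± 0.35, Sox21 at 3.29 ± 0.28 and Pax6 at 2.60 ± 0.26. Utf1 fell at -1.23 ± 0.18, Dppa4 at -0.91 ± 0.16, Sall4 at -0.51 ± 0.08 and Trim71 at -0.37 ± 0.10, the last from a mean of 89.3 ± 9.79 CPM to 73.6 ± 12.6 CPM (SD, n = 6 each).

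Lin28a alone rose again. Its 6 WT NPC libraries ran from 344 to 469 CPM with a median of 390, above all 6 serum libraries, a log2 change of 0.83 ± 0.13 (adjusted p = 2.51e-05). Within the LIN28 and let-7 pathway 8 of 16 genes rose and 4 fell at this step: Nr6a1, the orphan nuclear receptor GCNF, rose at 1.59 ± 0.09, while the cell cycle inhibitor Cdkn1a at -1.98 ± 0.15 and the MYC relative Mycn at -1.49 ± 0.13 fell. All 10 OCT4-SOX2 enhancer targets fell, among them the Nodal co-receptor gene Tdgf1 at -3.60 ± 0.13, Spp1 at -4.13 ± 0.28 and Upp1 at -2.04 ± 0.16. Of the naive genes 13 of 14 fell, of the formative genes 5 of 11 rose and 2 fell, and of the partners of SALL4 and OCT4 10 of 18 fell and 3 rose, the histone deacetylase gene Hdac2 at 1.03 ± 0.13. Fibroblast markers fell in 19 of 19 and macrophage markers in 10 of 10.

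The other lines gave values of their own. In pKO cells 8 of 9 passed from serum to NPCs (63% of genes did), Lin28a higher at 1.11 ± 0.13 and 7 lower, from Dppa2 at -1.97 ± 0.18 to Sall4 at -0.37 ± 0.09, with Trim71 at 0.00 ± 0.11 not past the test. The Dppa2 and Dppa4 values average unlike lines: mean Dppa2 went from 158 to 18.1 CPM in pKO1 and from 210 to 140 CPM in pKO2, and in the same order mean Dppa4 went from 101 to 24.3 CPM and from 98.0 to 79.0 CPM (n = 3 each). With lines as replicates neither passed (-1.27, adjusted p = 0.130, and -0.98, adjusted p = 0.0553). The pKO call for L1td1, at -0.47 ± 0.19, was lost in 6 of 45 fits that left out 1 library, without pKO1 serum 2 or 3, pKO2 serum 3, pKO1 NPC 1, pKO2 NPC 1 or pKO2 NPC 3, with log2 changes from -0.43 to -0.31. In pInv cells 8 passed as well (47.3% of genes did), Lin28a at 1.11 ± 0.18 higher and Dppa2 at -2.09 ± 0.25 the lowest. The Sall4 call in pInv, at -0.33 ± 0.12, was lost without pInv serum library 3 or any of the 3 pInv NPC libraries, the Utf1 call without pInv serum 3 or pInv NPC 1, and the L1td1 call without pInv NPC 1, when the log2 changes ran from -0.31 to -0.22, from -0.85 to -0.55 and to -0.66. The difference of the NPC step between pKO and WT passed for none of the 9 by edgeR (4.02% of genes). At an unadjusted p under 0.05 there were 3 (19.5% of genes), and by DESeq2 1 passed (981 genes did). The difference between pInv and WT passed for none by either tool (0.00638% of genes by edgeR). None was at an unadjusted p under 0.05 there (6.49% of genes). The nearest was L1td1, which fell less in pKO by 0.81 ± 0.27 on the log2 scale (adjusted p = 0.0714 by edgeR, 0.0450 by DESeq2), and which passed without pKO2 serum library 3 or without NPC library 2 of WT1, WT2 or pInv, with differences from 0.81 to 0.95.

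In the perturbation series the step was tested within that series alone. From serum to NPCs 5 of 9 passed in Ctrl (54.4% of 14374 genes did), all lower: Utf1 at -1.91 ± 0.22, Sox2 at -1.70 ± 0.32, Trim71 at -1.12 ± 0.21, Sall4 at -1.06 ± 0.14 and Pou5f1 at -0.51 ± 0.19. The Pou5f1 call was lost in 5 of 18 fits, without Ctrl serum 1 or 3, Ctrl NPC 2 or 3, or KD1 NPC 3 (from -0.49 to -0.34). In KD cells 6 passed (67.6% of genes did), the same 5 genes lower, from Utf1 at -1.91 ± 0.16 to Pou5f1 at -0.37 ± 0.13, and Lin28a higher at 0.33 ± 0.11. The KD calls of Pou5f1 were lost without serum library 3 or NPC library 2 of KD1 or KD2 (from -0.34 to -0.31), and that of Lin28a without KD1 NPC 1 (0.25). OCT4 mRNA stood at 491 to 735 CPM in the 3 Ctrl NPC libraries and at 563 to 872 CPM in the 6 KD NPC libraries, against 187 to 338 CPM in the 6 WT NPC libraries of the genotype series. These series were not fitted together, and line and series cannot be told apart in that last contrast.

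**Figure D2:**
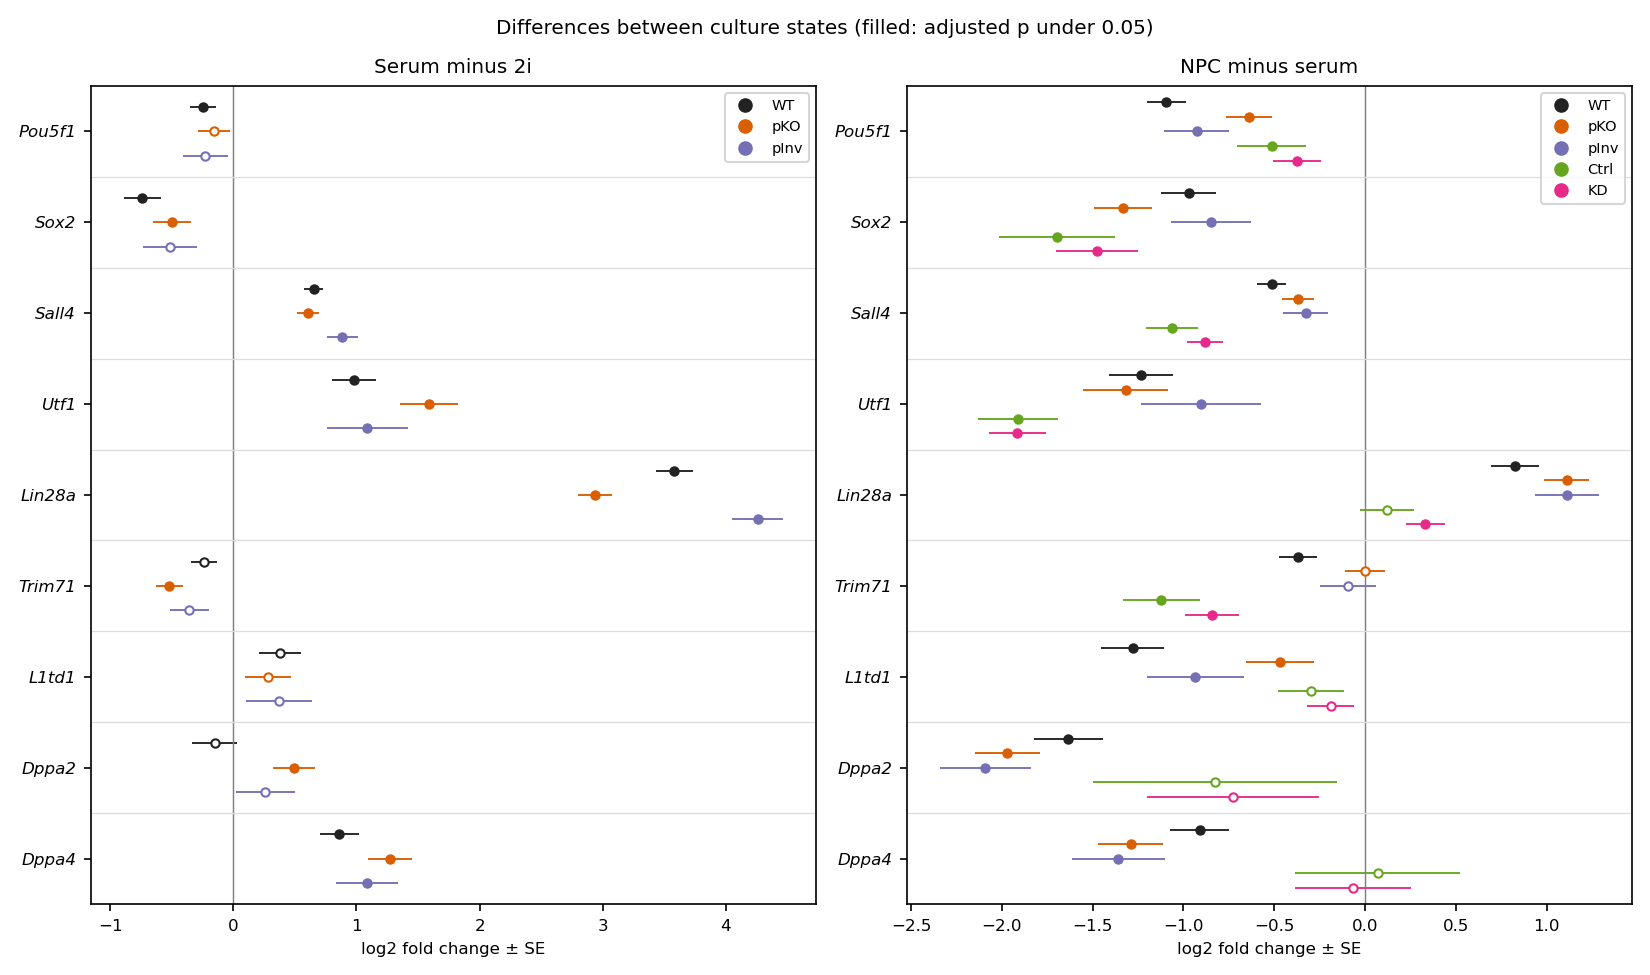
Log2 fold change with its SE (x axis) for each gene (y axis) from 2i to serum, left, and from serum to NPC, right, with colour for the cells and filled points for an adjusted p under 0.05. Lin28a lies right of 0 in the NPC step, at 0.83 in WT and 1.11 in pKO and pInv, where no other gene passed on that side, and Dppa2 reaches -2.09 in pInv.

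A further comparison is between cells with and without the Meteor promoter. In NPCs 3 of the 9 were higher in pKO than in WT and none was lower, where 8.05% of 14511 genes passed and 3.45% were higher. Pou5f1 ran from 310 to 549 CPM (median 380) in 6 pKO libraries and from 187 to 338 CPM (median 275) in 6 WT libraries. That is a log2 difference of 0.63 ± 0.16 (adjusted p = 0.0285). L1td1 ran from 153 to 277 CPM (median 221) against 75.7 to 218 CPM (median 131), at 0.78 ± 0.22 (adjusted p = 0.0382). Sall4 ran from 311 to 421 CPM (median 354) against 274 to 327 CPM (median 283), at 0.35 ± 0.10 (adjusted p = 0.0430). The ranges overlap for all 3. With WT1 alone as the control none of the 9 passed, and with the lines taken as replicates (2 against 2) none passed. The 3 differences against WT1 alone were 0.39 for Pou5f1, 0.41 for L1td1 and 0.32 for Sall4. For pKO1 alone against WT all 3 calls were lost as well, at 0.46 for Pou5f1 (adjusted p = 0.172), 0.63 for L1td1 (adjusted p = 0.155) and 0.30 for Sall4 (adjusted p = 0.152). Lin28a passed at 0.37 (adjusted p = 0.0490). Sall4 also lost its call for pKO2 alone against WT, at 0.40 (adjusted p = 0.0692). With WT2 alone as the control it was lost too, at 0.38 (adjusted p = 0.0883).

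The adjusted p-values lay near the threshold. Pou5f1 and L1td1 each lost the call in 7 of 15 fits that left out 1 library: WT2 NPC 1, pKO1 NPC 2, pKO2 NPC 2, or library 3 of WT1, WT2, pKO1 or pKO2, with values from 0.54 to 0.62 and from 0.70 to 0.79. Sall4 lost it in 12 of 15, all but those without pKO2 NPC 1, WT1 NPC 2 or pInv NPC 3, with values from 0.28 to 0.38, and at 0.34 (adjusted p = 0.0538) without the filter on low counts. Trim71, at 0.39 ± 0.14 (adjusted p = 0.107), passed at 0.48 without WT1 NPC 1. In the same NPCs Eomes was 2.81 ± 0.32 higher on the log2 scale in pKO. The OCT4-SOX2 enhancer targets counted 4 of 10 higher and 1 lower, with Lefty1 at 1.88 ± 0.33, Tdgf1 at 1.29 ± 0.16 and Zscan10 at 0.68 ± 0.15, while the naive genes counted none higher and 1 lower of 14, Dppa3 at -1.46 ± 0.29. Partners of SALL4 and OCT4 counted 4 higher of 18, with the SALL4 relative Sall3 at 1.64 ± 0.33, and the LIN28 and let-7 pathway 3 higher of 16, with Arid3b at 0.69 ± 0.15. Of the genes that depend on DPPA2 and DPPA4, 7 of 9 were higher, with Zscan4f at 2.60 ± 0.35. These list counts are for the mean of pKO1 and pKO2. Most naive genes, and part of the enhancer targets and of the DPPA2 and DPPA4 list, differed between those lines in NPCs, as given below. The naive gene Zfp42 ran from 5.21 to 59.9 CPM in pKO NPC libraries and from 16.4 to 41.9 CPM in WT NPC libraries.

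In the stem cell states 1 gene of the 9 passed each time. In 2i it was Lin28a (9.06% of 13938 genes passed, 3.29% higher), at 21.3 to 28.3 CPM (median 23.3) in pKO against 8.79 to 28.8 CPM (median 15.6) in WT. That is a log2 difference of 0.54 ± 0.16 (adjusted p = 0.0471). The wild-type lines differed, with overlap: WT1 gave 14.8, 27.5 and 28.8 CPM and WT2 gave 8.79, 12.3 and 16.3 CPM. The difference against WT1 alone was 0.07 (adjusted p = 0.878), and the call was lost in 12 of 15 fits that left out 1 library, all but those without pInv 2i 1, WT1 2i 3 or WT2 2i 3, with values from 0.43 to 0.59. With a block for the replicate number, which pairs the 2i libraries, 3 passed: Lin28a, Sall4 at 0.23 (adjusted p = 0.0158) and Trim71 at 0.28 (adjusted p = 0.0231). The 9.06% above is from the fit without the block. The share of all genes passing with the block is not given here, so the 3 cannot be set against it. Without the block Sall4 passed when pInv 2i 1 or WT2 2i 3 was left out and Trim71 when WT1 2i 1 or pKO1 2i 3 was left out, from 0.23 to 0.28 and from 0.30 to 0.33.

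In serum the gene was Dppa2 (5.95% of 14197 genes passed, 1.77% higher), at 135 to 250 CPM (median 190) in pKO against 91.6 to 151 CPM (median 133) in WT. This was a log2 difference of 0.58 ± 0.13 (adjusted p = 0.0209). The difference lost its call without library 3 of WT1 serum, at 0.58, or of WT2 serum, at 0.51, against WT1 alone, at 0.44 (adjusted p = 0.262), and for pKO1 alone, at 0.35 (adjusted p = 0.196). Utf1, at 0.39 ± 0.18 (adjusted p = 0.197), passed at 0.58 when WT2 serum 1 was left out. Of the genes that depend on DPPA2 and DPPA4, 7 of 10 were higher in pKO serum cells, with Zscan4b at 3.11 ± 0.31, Zscan4f at 2.69 ± 0.29 and Zscan4d at 3.09 ± 0.34, and these family members resemble one another, so reads may be divided among them. In 2i the same list counted none higher and 2 lower of 8, with Zscan4f at -1.04 ± 0.29. The wild-type lines differed in more of them, 6 of 8 being higher in WT2 than in WT1, with Zscan4f at 1.85 ± 0.39. The list summed to 10.2 to 56.7 CPM in WT 2i libraries and to 18.7 to 26.7 CPM in pKO 2i libraries. The fibroblast markers summed to 2918 to 17565 CPM in pKO serum against 3691 to 7201 CPM in WT serum, and the macrophage markers to 285 to 693 CPM against 243 to 543 CPM; their part was not tested.

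The inverted promoter gave no call for the 9 genes by edgeR in any state, with 0.911% of genes past the threshold in 2i, 0.0563% in serum and 0.0138% in NPCs. At an unadjusted p under 0.05 there was 1 member in 2i (12.6% of genes), none in serum (4.86%) and 1 in NPCs (6.99%). By DESeq2 there was 1 in 2i (432 genes) and none in serum (46 genes) or NPCs (55 genes). The member in 2i was Lin28a, at 7.83, 10.2 and 12.4 CPM in the 3 pInv libraries, a log2 difference of -0.75 ± 0.21 (adjusted p = 0.105) that passed with the replicate block (adjusted p = 0.00707), by DESeq2 (adjusted p = 0.0209) and, at -0.87, without WT1 2i 1. All 3 pInv values lie below all 6 pKO values and below the 3 values of WT1, and they overlap with WT2.

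The wild-type lines themselves differed. In 2i 18% of genes passed between WT2 and WT1, and with them Lin28a at a log2 difference of -0.93 ± 0.23 (adjusted p = 0.0109), from the values given above, and Utf1 at -0.50 ± 0.15 (adjusted p = 0.0331), from 226 to 287 CPM in WT1 down to 158 to 206 CPM in WT2. Utf1 lost its call without library 1 or 2 of either line in 2i, from -0.52 to -0.37. With the block 4 of the 9 passed, Sox2 at -0.43 (adjusted p = 0.0146) and Sall4 at -0.29 (adjusted p = 0.0217) among them. The 18% above is from the fit without the block, and the share of all genes passing with it is not given here. Left-out libraries also brought in Sall4, without pInv 2i 1 or WT2 2i 3, from -0.36 to -0.27, and Sox2, without WT1 2i 3, at -0.61. In serum and NPCs none passed by edgeR (0.528% and 0.103% of genes). At an unadjusted p under 0.05 there were 1 and 2 members (9.04% and 8.35% of genes). By DESeq2 0 and 1 passed (255 and 168 genes did). The last was Dppa2 in NPCs, at 43.8, 58.5 and 77.6 CPM in WT1 and 26.1, 34.5 and 31.9 CPM in WT2, a log2 difference of -0.98 ± 0.23 (adjusted p = 0.132 by edgeR, 0.00895 by DESeq2) that passed without WT1 NPC 1, at -1.18.

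**Figure D3:**
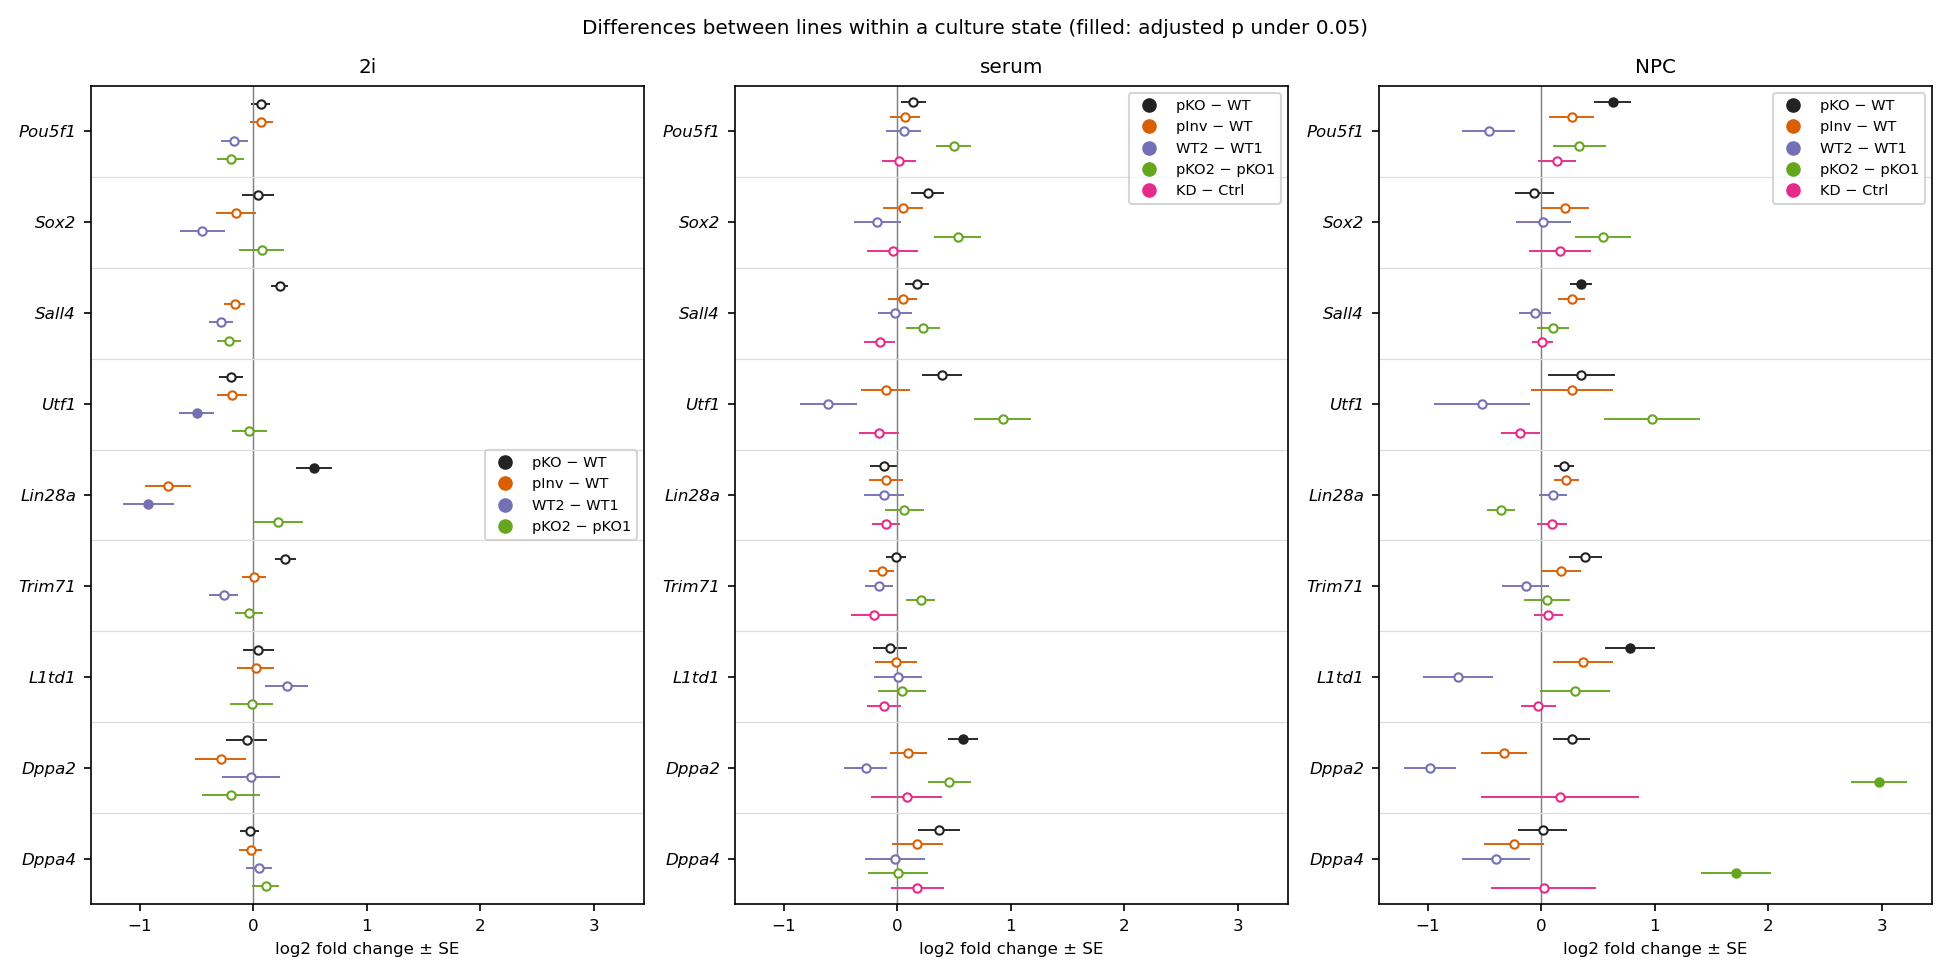
Log2 differences with their SE (x axis) between lines for each gene (y axis) in 2i, serum and NPCs, with colour for the comparison and filled points for an adjusted p under 0.05. Most points lie within 1 of 0, whereas Dppa2 at 2.98 and Dppa4 at 1.71 stand out for pKO2 against pKO1 in NPCs.

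The widest gap between lines of one genotype was in Dppa2 and its partner Dppa4, whose genes lie 16.0 kb apart on chromosome 16. In NPCs Dppa2 gave 17.1, 21.4 and 15.6 CPM in pKO1 and 164, 129 and 127 CPM in pKO2, and Dppa4 gave 17.8, 31.6 and 23.5 CPM against 77.2, 86.8 and 73.0 CPM. The pKO2 libraries lie above all 6 WT libraries for both genes, and the pKO1 libraries lie below all 6 for Dppa2. This comparison of pKO2 with pKO1 was added after these values were seen. It gave 2 of 9 members, Dppa2 at a log2 difference of 2.98 ± 0.24 (adjusted p = 1.71e-05, ranked 1 by p among 14511 genes) and Dppa4 at 1.71 ± 0.31 (adjusted p = 0.00569), where 2.93% of genes passed. Against WT, pKO1 alone had less Dppa2 (-1.22, adjusted p = 0.00568) and pKO2 alone had more (1.76, adjusted p = 7.6e-05), so the mean over both lines, 0.27 ± 0.16, describes neither. In serum the same lines gave no call by edgeR (0.197% of genes). At an unadjusted p under 0.05 there were 4 members (15.3% of genes), and by DESeq2 1 passed (206 genes did). In 2i none passed by either tool (0.574% of genes by edgeR, 249 genes by DESeq2). None was at an unadjusted p under 0.05 there (12% of genes). In serum Pou5f1 passed, at 0.67, when pKO2 serum 2 was left out.

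Other genes moved along between these lines in NPCs. Of the genes that depend on DPPA2 and DPPA4, 4 of 9 were higher in pKO2 and none lower, with the germline gene Mael at 2.28 ± 0.28, Zscan4c at 2.63 ± 0.54 and Zscan4f at 2.12 ± 0.46. Naive genes counted 11 of 14 higher, with Klf2 at 3.41 ± 0.39, Nr0b1 at 3.47 ± 0.44 and Zfp42 at 2.39 ± 0.33, and OCT4-SOX2 enhancer targets 4 of 10 higher, with Tdgf1 at 1.43 ± 0.23. The neural progenitor list counted 0 of 12 by edgeR. Pou5f1 itself, at 0.34 ± 0.23, and Sox2, at 0.54 ± 0.24, did not pass between the lines.

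Knockdown gave no call for the 9 genes. None passed between KD and Ctrl in serum or in NPCs by edgeR or DESeq2, none had an unadjusted p under 0.05, and 0% of all genes passed by edgeR in either state, with 138 of 13644 and 179 of 13454 at an unadjusted p under 0.05 and 1 and 2 by DESeq2. The difference of the NPC step between KD and Ctrl passed for none of the 9 by either tool and for 0% of all genes by edgeR, with 83 genes at an unadjusted p under 0.05 and 4 by DESeq2. These fits had no replicate block, although replicate numbers pair the libraries of this series. With the block no result changed for the 9 genes. The counts of all genes and the Platr11 values in this paragraph are without the block, and those with it are not given here. The locus check Platr11 did not pass by edgeR without the block either, at a log2 difference of -3.39 ± 0.45 in serum (adjusted p = 0.180). In NPCs it was at -2.85 ± 0.34 (adjusted p = 0.138). The absence of calls therefore does not show that the 9 genes were unchanged. The SE in NPCs, without the block, was 0.09 for Sall4 and 0.13 for Lin28a, but it reached 0.69 for Dppa2 and 0.46 for Dppa4.

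Those large errors came with the replicate number. In NPCs the libraries numbered 1 held 33.2, 30.0 and 41.3 CPM of Dppa2 in Ctrl, KD1 and KD2, whereas the 6 numbered 2 and 3 held 144 to 222 CPM. Dppa4 stood at 38.7, 38.0 and 37.2 CPM in the first set and at 94.1 to 121 CPM in the other 6. In serum the split was the same in direction, Dppa2 at 129 to 154 CPM against 221 to 369 CPM and Dppa4 at 62.3 to 70.2 CPM against 81.1 to 134 CPM, with no overlap. All 3 lines share it, and with a block for the number, which pairs these libraries, Dppa2 fell from serum to NPCs in Ctrl at -1.12 (adjusted p = 9.55e-07) and in KD at -0.99 (adjusted p = 2.74e-08), and L1td1 at -0.30 (adjusted p = 0.00689) and -0.18 (adjusted p = 0.0155). In the main fit, without the block, Dppa2 was at -0.82 ± 0.67 in Ctrl and -0.73 ± 0.47 in KD, and did not pass. With libraries numbered 2 and 3 only, a choice made after seeing the data, it passed by edgeR without the block. The values were -0.57 in Ctrl (adjusted p = 0.0379) and -0.56 in KD (adjusted p = 0.00558). With lines as replicates Dppa2 was at -0.88 in Ctrl and -0.66 in KD. Dppa4 did not pass with or without the block. In 2i the 5 libraries numbered 1 were also low in Dppa2, at 84.4 to 105 CPM against 113 to 177 CPM in the other 10, and in L1td1, at 141 to 205 CPM against 226 to 304 CPM. L1td1 was low in number 1 in the perturbation series too, at 252 to 303 against 316 to 389 CPM in serum. In its NPCs L1td1 stood at 221 to 262 against 270 to 336 CPM. Sox2 was low there as well, at 35.95 to 38.3 against 50.4 to 76.4 CPM. Pou5f1 divided the other way in these NPCs, at 730 to 872 CPM in number 1 against 491 to 636 CPM. So did Trim71, at 65.8 to 73.2 against 50.05 to 63.7 CPM. Sall4, Utf1 and Lin28a overlapped in serum and NPCs, and Pou5f1, Sox2 and Trim71 in serum. Such splits were not counted over all genes, so they do not set these genes apart. The labels do not say what a replicate number stands for.

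**Figure D4:**
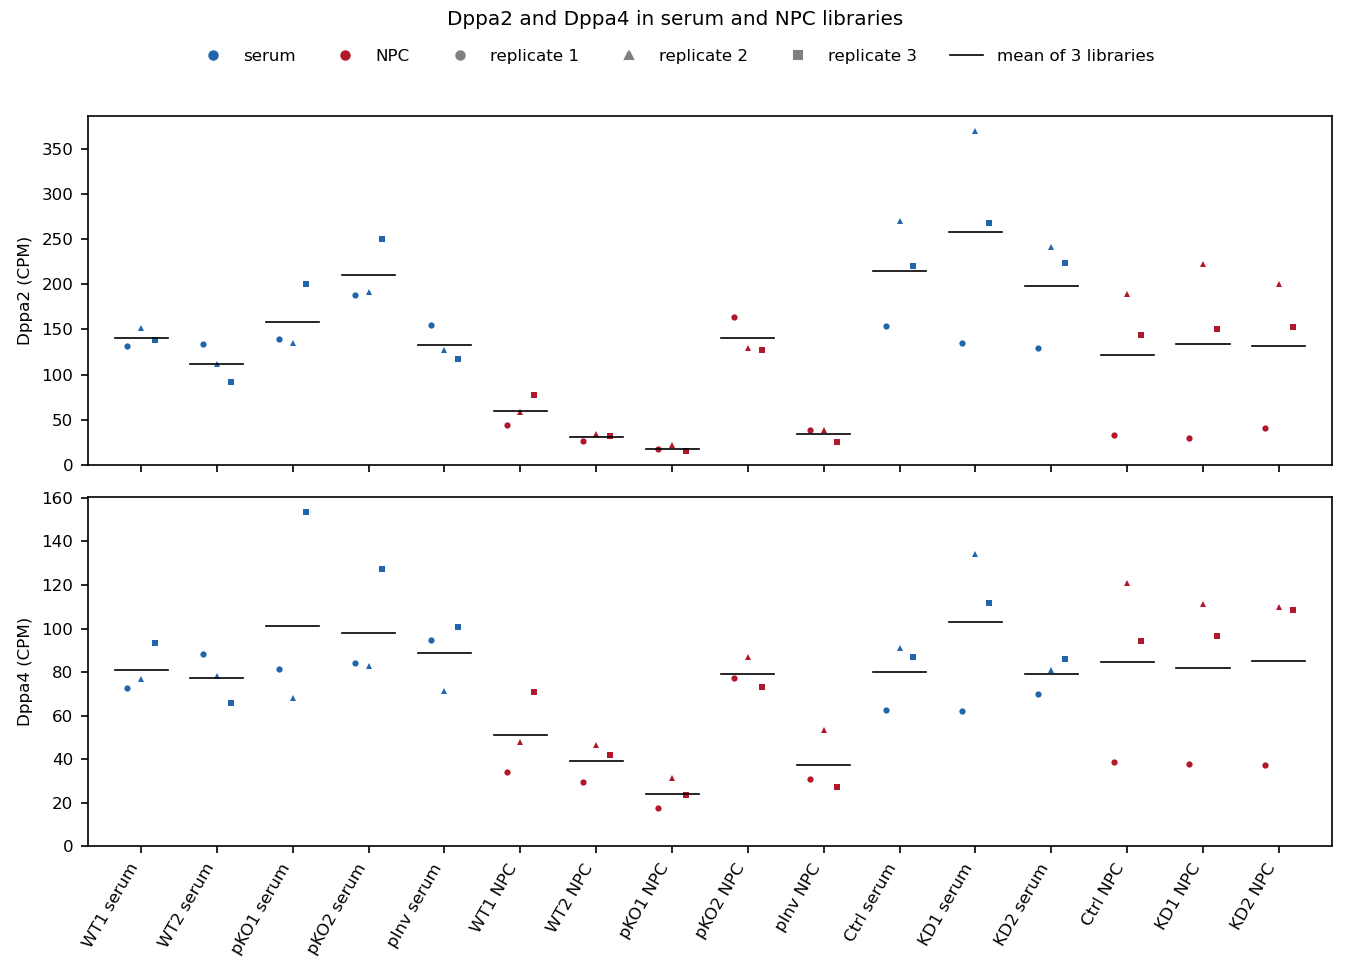
Dppa2, top, and Dppa4, bottom, in CPM in each serum and NPC library, with groups along the x axis, symbols for the replicate number and bars at the mean of 3 libraries. pKO2 NPCs keep 127 to 164 CPM of Dppa2 where pKO1 NPCs have 15.6 to 21.4 CPM, and replicate 1 of Ctrl, KD1 and KD2 NPCs lies at 30.0 to 41.3 CPM below replicates 2 and 3.

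The deposited tables also give a length for each gene, the mean of its transcripts weighted by their estimated shares. In WT that of Sall4 was lower in serum than in 2i and lower again in NPCs. The transcripts assigned to Sall4 are 5073, 3741 and 2534 bases long in GENCODE M21. In WT the estimated length was 5054 ± 9.95 bases (SD, n = 6) in 2i, close to the longest transcript, 4952 ± 110 bases (SD, n = 6) in serum and 4053 ± 476 bases (SD, n = 6) in NPCs. Both steps passed a two-sided exact permutation test adjusted over 15 such tests on Sall4, Pou5f1 and Dppa4, which were chosen after the values were seen (adjusted p = 0.00812 and 0.0130). The WT 2i and serum libraries did not overlap, a separation shown by 10.7% of the 3161 genes described below. The WT serum libraries, at 4744 to 5035 bases, and NPC libraries, at 3541 to 4783 bases, overlapped. KD NPCs stood at 3202 to 3910 bases, below all 6 KD serum libraries at 4017 to 5046 bases (adjusted p = 0.00812), and 8.42% of the 3161 genes with several transcripts and a mean of at least 10 CPM had no overlap in that comparison. In pKO the serum step passed (exact permutation adjusted p = 0.0162) and the NPC step did not, at 4783 ± 428 bases in serum and 4465 ± 386 bases in NPCs (SD, n = 6 each, exact permutation adjusted p = 0.331).

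Pou5f1 differed in length between 2i and serum. Its estimated length was 1267 ± 78.3 bases (SD, n = 6) in WT 2i cells and 1122 ± 8.31 bases (SD, n = 6) in WT serum cells, without overlap. The 2i values went with the replicate number in both WT lines. They stood at 1353 and 1345 bases for number 1, 1304 and 1236 for number 2 and 1187 and 1175 for number 3. The permutation test takes no account of the number. In the same comparison 10.7% of the same 3161 genes did not overlap, and, from WT serum to WT NPCs, 10.1%. The permutation test was past the threshold in WT and in pKO (exact, adjusted p = 0.00812 each). From serum to NPCs Pou5f1 was shorter in KD, at 1120 and 1061 bases (exact permutation adjusted p = 0.0278), with no call in WT (0.221) or in pKO (0.0933), where NPCs had the longer mean, 1164 against 1105 bases. Shares of transcripts from short reads depend on coverage along the gene, and serum libraries with low Sall4 lengths, pKO1 serum 3 at 4031 bases and KD1 serum 2 at 4017 bases, were also low for Pou5f1, at 1068 and 1053 bases; the part of coverage was not tested. All counts of the other 6 genes came from gene models with 1 transcript.

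**Figure D5:**
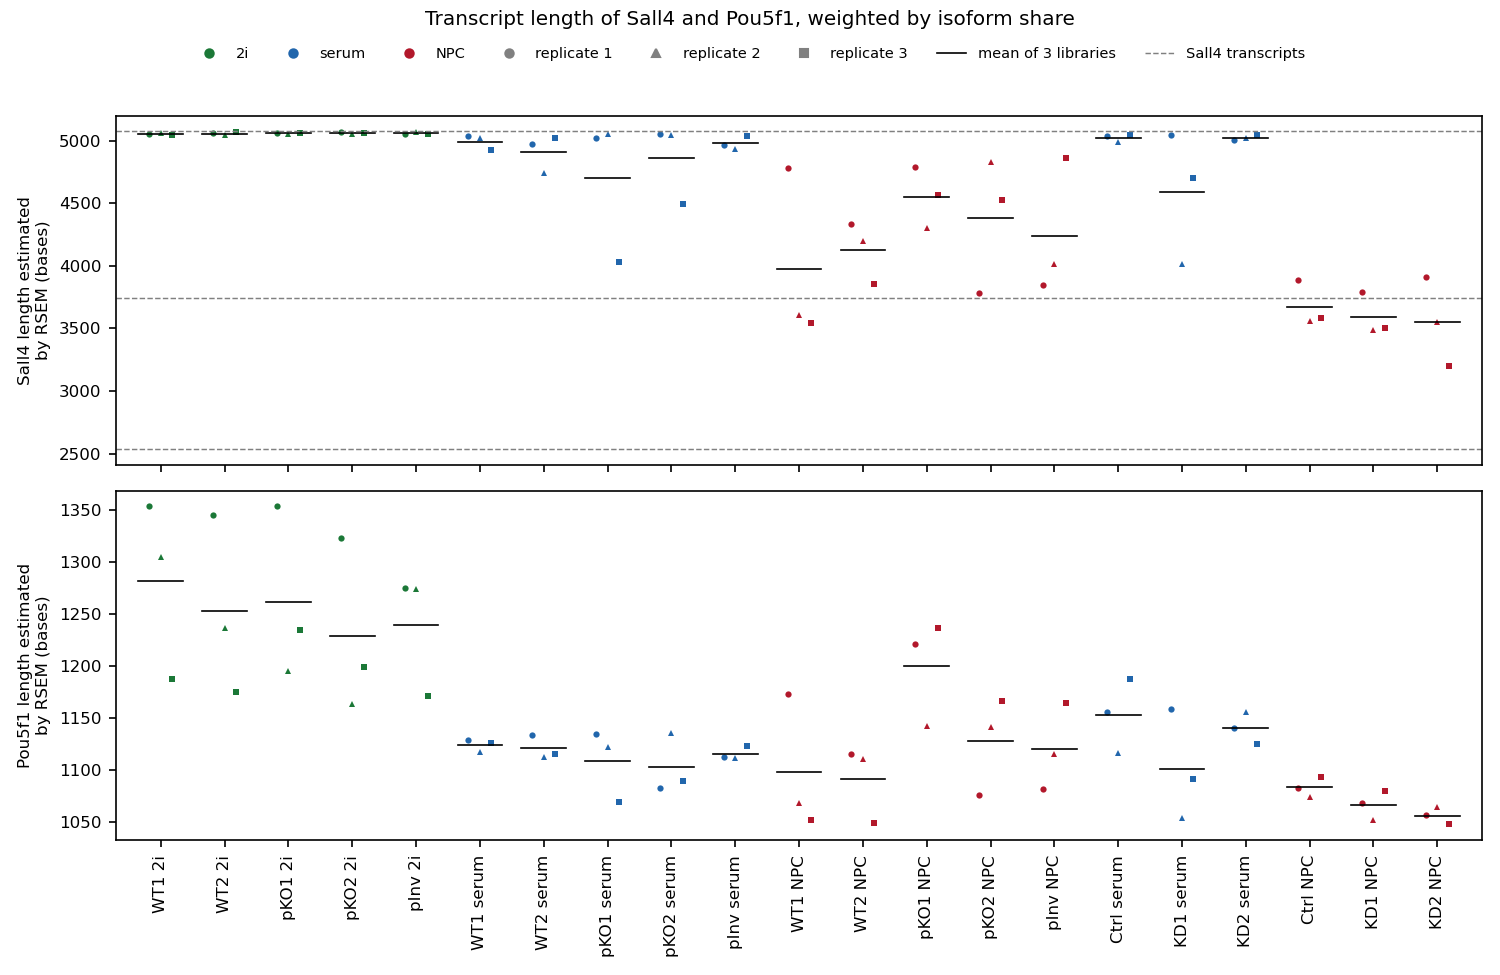
Estimated transcript length of Sall4, top, and Pou5f1, bottom, in bases in each of the 63 libraries, with groups along the x axis and dashed lines at the lengths of the annotated Sall4 transcripts. In 2i every Sall4 value is between 5041 and 5070 bases, and in KD NPCs they lie between 3202 and 3910 bases.

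Likeness of pattern over the 21 group means (Pearson r of log2(CPM + 1), among 13506 genes, with no test, since groups share series, state and line) was ranked for each gene. For Lin28a the 3 most alike were Zfp608 (r = 0.983), Bend3 (0.982) and Slc1a3 (0.980), and for Sox2 they were Cpne5 (0.968), Ifitm2 (0.961) and Ppm1j (0.957). Dppa2 was most like Eprn (0.957), Sall4 most like Zfp532 (0.964), Utf1 most like Eno1 (0.951), Trim71 most like Hic2 (0.947), L1td1 most like Yrdc (0.941), Pou5f1 most like Chchd4 (0.935) and Dppa4 most like 4930526L06Rik (0.923). Among the 9, the closest pairs were Sall4 with Utf1 (0.892) and Pou5f1 with L1td1 (0.841), with Pou5f1 and Sox2 at 0.811 and Dppa2 and Dppa4 at 0.744. Lin28a ran against Sox2 (-0.569) and Trim71 (-0.482).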

How the data were processed

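Poly(A) RNA of 63 libraries had been counted with RSEM on the mouse build mm9, per the submitters' processing notes; the aligner, the RSEM version and the strand setting are not given in the sources used here. The deposited tables hold expected counts, TPM and FPKM per gene as the authors computed them, and FPKM was not used. Expected counts were rounded to whole numbers and tested with edgeR 4.0.16 (R 4.3.3), using TMM scaling, its filter on low counts and quasi-likelihood F tests, with Benjamini-Hochberg adjustment over all genes tested and a threshold of 0.05. All 9 genes passed the filter in every comparison. CPM is the expected count per 1000000 counts of the library, and the deposited TPM from the authors compares genes per length. Genotypes were compared within a state (WT, pKO and pInv lines together) and states within a genotype series. The SE of a log2 fold change is its size divided by the square root of F. Row names were matched to RefSeq tables of another build, GRCm38.p6. Of each library's counts, 1.88 to 2.37% lay in rows that merge several genes and 0.668 to 6.04% in 1 row without a match. The members' expected counts lay within 0.02 of whole numbers in every library.

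The 9 genes and the other gene lists were chosen with earlier results of these data known. Named genes were all 9, the 3 most alike in pattern, and up to 3 genes of each other list by smallest p among those past the threshold. Every fit was repeated with DESeq2 1.42.0, other scaling, no filter, a replicate block, lines as replicates, single lines and each library left out. Replicate numbers were taken to pair libraries where every pair's correlation of deviations passed 0.1. That held in 2i (lowest 0.247 of 30 pairs), KD serum (lowest 0.305) and KD NPCs (lowest 0.250). It also held in the fit of both states of the perturbation series (lowest 0.223). It did not hold in serum, NPCs, the WT states or the joint fit of the genotype series. The test was checked on simulated data.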

Additional observations from a re-analysis of the deposited data

Results flagged for a closer look

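Among 72 sets of 6 libraries of one genotype and state, 2 had a library whose gap to its nearest neighbour was large against the range of the set; chance gives about 1 in 20 such sets. Lin28a stood at 193 CPM in KD1 serum library 2, where the other 5 KD serum libraries ran from 241 to 267 CPM. Trim71 stood at 97.7 CPM in WT1 NPC library 1, where the other 5 WT NPC libraries ran from 61.8 to 74.9 CPM.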

How the results depend on the processing

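Across 3092 alternative values of 92 results of the 9 genes, 2876 stayed on the same side of the threshold, 122 fell short of it and 93 newly passed it. The value that reversed, 1 in all, was Dppa2 in NPCs for pKO1 alone (-1.22). Direction was compared only where the main or the alternative value passed. Of 5134 alternative values of uncalled members that passed in neither fit, 269 had the opposite sign. For pKO against WT in 2i, 1 gene passed, against 3 by DESeq2, 2 with RLE scaling, 3 with the replicate block, 0 with lines as replicates, 0 with WT1 alone, 3 with WT2 alone and 0 for pKO1 alone. In serum the count of 1 became 2 with the block, 0 with lines as replicates, 0 with libraries numbered 2 and 3 only, 0 with WT1 alone, 0 for pKO1 alone and 2 for pKO2 alone. In NPCs the count of 3 became 0 with lines as replicates, 0 with WT1 alone and 6 with libraries numbered 2 and 3 only, a choice made after seeing the data. For pKO1 alone all 3 calls in NPCs were lost, and Lin28a at 0.37 and Dppa2 at -1.22 passed in their place. For pInv in 2i, 0 became 1 by DESeq2, 1 with the block, 1 with WT1 alone and 2 with libraries 2 and 3. For WT2 against WT1, 2 became 4 with the block in 2i and 0 became 1 by DESeq2 in NPCs. With lines as replicates the NPC step gave 4 in pKO and 3 in pInv in place of 8 each, and the serum step 2 in pInv in place of 4; fewer samples enter these fits. The pKO differences of the serum and NPC steps, 0 each, became 1 and 1 by DESeq2, 1 and 2 with the block, and 3 for the NPC step with libraries 2 and 3. For pKO2 against pKO1 in serum 0 became 1 by DESeq2 and 1 with the block. Leaving out single libraries gave 0 to 2 in 2i, 0 to 2 in serum and 0 to 3 in NPCs for pKO, 0 to 1 for pInv in 2i, 1 to 3 in 2i and 0 to 1 in NPCs for WT2 against WT1, 0 to 1 for each pKO difference of steps, 5 to 8 for the NPC step in pInv, and 0 to 1 for pKO2 against pKO1 in serum. The cause of these shifts was otherwise not tested. The counts in this section are of the 9 genes alone, given without the share of all genes passing in each fit.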
